A study of Mus musculus castaneus and Mus musculus domesticus with 13 samples.

Results

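The genes described are 10 of the 21706 in a table of RNA counts, namely Afp, Alb, Ttr, Apoa1, Apoa2, Apob, Apoc1, Apoc2, Apoe and Hnf4a. They were taken by gene symbol, and all 10 are in the table. The set was selected on measured levels of these libraries, namely liver-type transcripts in 1 fibroblast culture and a difference of Apoc2 between mouse strains, so those patterns are given as descriptions and carry no test.

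Poly(A) RNA was sequenced in 13 cultures, 1 library each. The fibroblasts were 1 culture of B6D2F1 mouse embryonic fibroblasts (MEF) and 1 of CAST fibroblasts, which the study derived from tail tips (TTF). The 10 ntESC lines, embryonic stem cell lines grown from nuclear transfer blastocysts, were 4 of CASP (#M3, #M5, #F4, #F6), 4 of CAST (#M2, #M8, #F1, #F2) and 2 of B6D2F1 (#M3, #F2), with M for male and F for female donors. An ESC line from a fertilized B6D2F1 embryo was the last library. CASP/1Nga and CAST/Ei are wild-derived strains of Mus musculus castaneus, and B6D2F1 is the hybrid of the laboratory strains C57BL/6NCrSlc and DBA/2CrSlc. In every ntESC line a blood leukocyte nucleus had been placed in a B6D2F1 oocyte. The ntESC lines were kept with leukemia inhibitory factor and the inhibitors CHIR99021 and PD0325901 on mitomycin C-treated MEF feeders of C57BL/6NCrSlc, and were left on gelatin to shed the feeders before RNA was taken. Each line, the ESC line and both fibroblast cultures are single cultures without repeat libraries.

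The liver of the fetus and the endoderm of the yolk sac secrete most plasma proteins before birth. Apolipoproteins wrap lipid into soluble particles and steer these to enzymes and receptors, and the nuclear receptor Hnf4a drives many of their genes in hepatocytes and in visceral endoderm. Apoe, Apoc1, Apoc4 and Apoc2 lie side by side in the mouse genome, and in human liver they are known to share distal enhancers.

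Counts summed to 33395162 to 49968894 per library, and levels are given as CPM, counts scaled to a common library total, with TMM factors of all 13 libraries. A count of 0 allows up to 3 counts, which is 0.0573 to 0.0926 CPM depending on the library, for counting error only. The fibroblast genes Col1a1 and Col3a1 stood at 1645 and 1773 CPM in the MEF and at 1872 and 1049 CPM in the TTF library. In the 10 ntESC lines Col1a1 stood at 1.04% to 6.44% of its MEF level. Each line is a separate culture with 1 library, so p-values reflect the spread among lines alone. Strain differences were tested by edgeR (quasi-likelihood, sex as covariate) and adjusted over the 20226 genes tested. Of the 10 genes, 6 passed the filter on low counts (Apoa2, Apob, Apoc1, Apoc2, Apoe and Hnf4a), Apoc2 only through the B6D2F1 lines. Afp, Alb, Apoa1 and Ttr did not pass.

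Afp encodes alpha-fetoprotein, the main plasma protein of the fetus. Its count was 12339 in the MEF library (236 CPM), 4 in CAST #M2, 3 in the ESC library and 0 in the other 10. The MEF level was 2292-fold that of CAST #M2, the next highest, and this ratio was the highest of all 21706 genes. Alb, the gene of albumin, had a count of 1661 in the MEF (31.7 CPM) and 0 in each of the other 12 libraries, and was thus at least 342-fold higher in the MEF. Ttr, whose product transthyretin carries thyroid hormone and retinol-binding protein in plasma, had a count of 586 in the MEF (11.2 CPM), 7 in the ESC library and 0 in the other 11. The MEF level of Ttr was 71.2-fold that of the ESC library. Afp and Alb lie on chromosome 5 of GRCm38, at chr5:90490737-90508907 and chr5:90460897-90476602 on the plus strand. All 3 plasma protein genes were thus at or near 0 outside 1 culture, also in the other fibroblasts. Fewer cells of a type and less RNA per cell cannot be told apart in such bulk libraries.

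**Figure D1:**
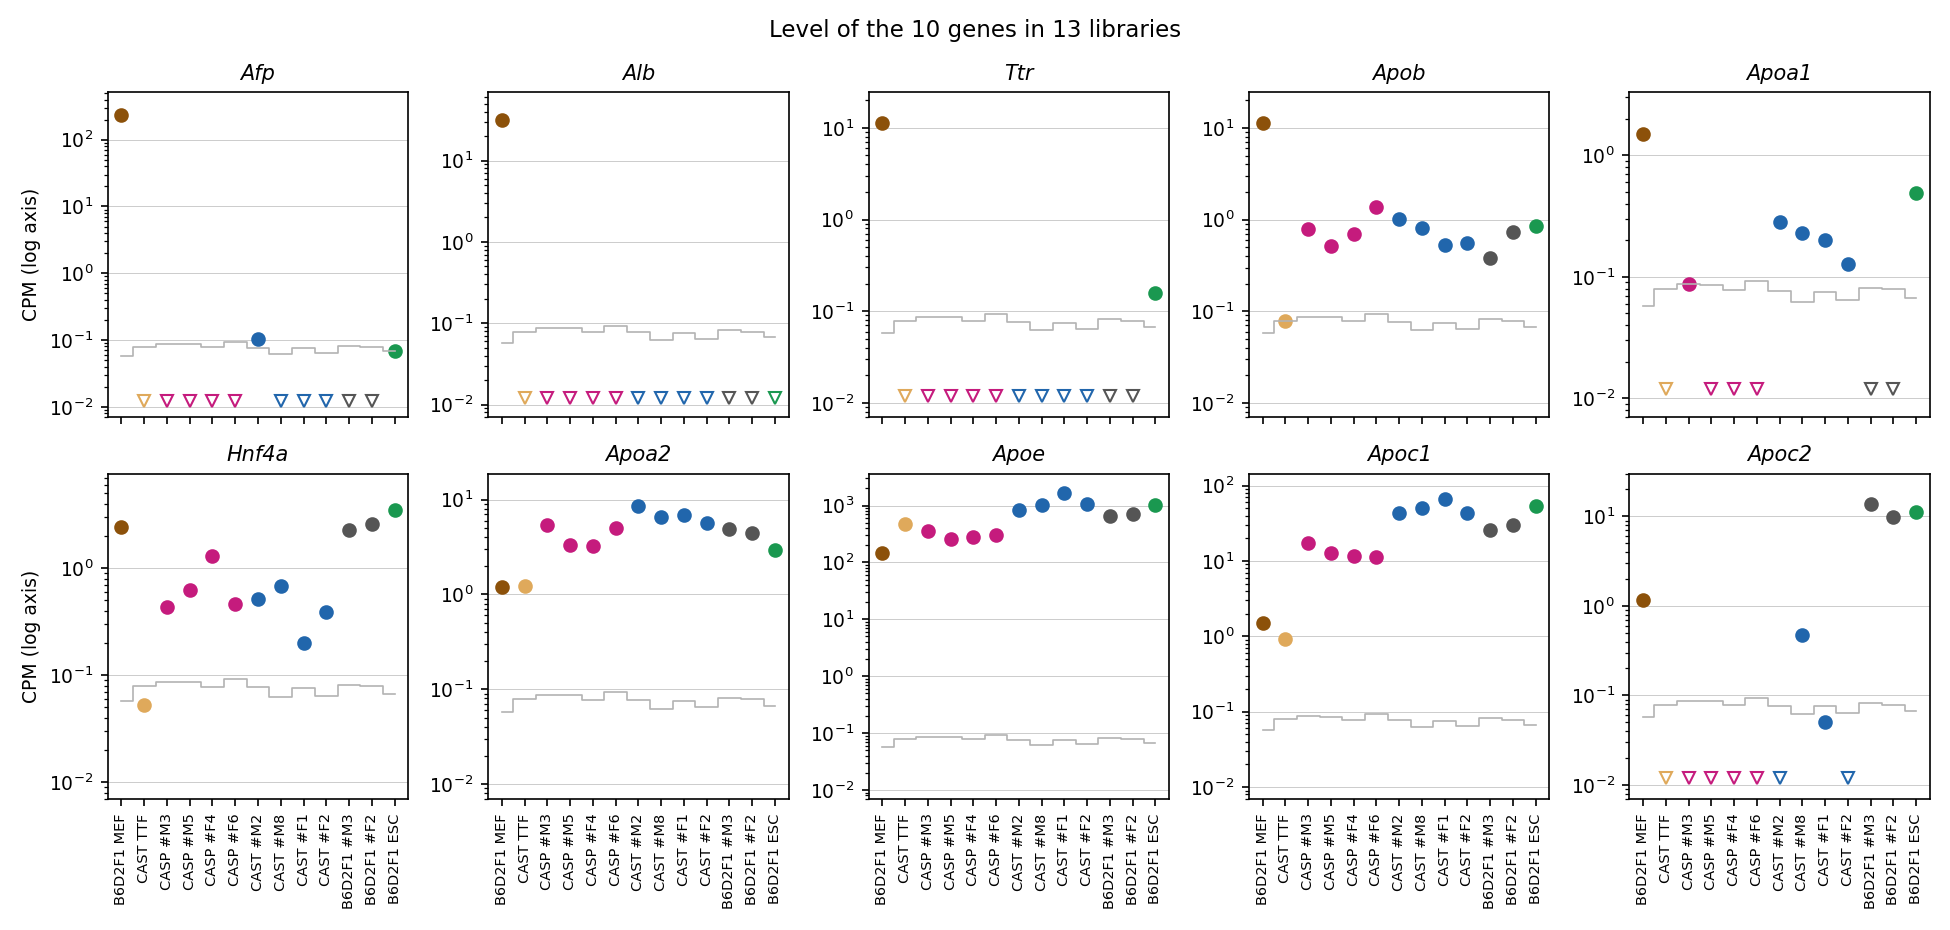
Level in CPM (log axis) of the 10 genes in each of 13 libraries, 1 point per library, with open triangles for a count of 0 and a grey step line for the level of 3 counts. Afp, Alb and Ttr stand out in the MEF library only, Apoe is counted in every library, and Apoc2 is high in the B6D2F1 ntESC lines and the ESC library and at or near 0 in CASP and CAST.

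Apob encodes the large structural protein of very low density lipoprotein, which hepatocytes, the gut and the yolk sac assemble. It stood at 11.2 CPM in the MEF (a count of 588) and 0.0790 CPM in the TTF library. The ntESC lines held 0.517 to 1.39 CPM in CASP, 0.527 to 1.03 CPM in CAST and 0.381 and 0.735 CPM in B6D2F1, and the ESC library 0.853 CPM. The MEF was 8.08-fold above CASP #F6, the highest of the others, and the 3 strains overlapped. Apoa1, the main protein of high density lipoprotein, had counts of 79 in the MEF and 0 in the TTF library. The 4 CASP lines had counts of 3, 0, 0 and 0, the 4 CAST lines 11, 11, 8 and 6, both B6D2F1 ntESC lines 0, and the ESC library 22. Apoa1 was therefore counted in every CAST line and in neither B6D2F1 ntESC line, at 0.283 CPM or less, and was below the filter of the test. The MEF was 3.06-fold above the ESC library for this gene.

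The other 5 genes were not highest in the MEF. Hnf4a stood at 2.42 CPM there and 0.0527 CPM (a count of 2) in the TTF library, against 3.48 CPM in the ESC library. Apoa2, a second protein of high density lipoprotein, stood at 1.20 CPM in the MEF and 1.24 CPM in the TTF library. Apoc1 stood at 1.51 and 0.921 CPM, and Apoc2 at 1.16 CPM (a count of 61) and 0. Apoe, a lipid carrier that macrophages and glia also make, stood at 144 CPM in the MEF and 474 CPM in the TTF library, the reverse order of the plasma protein genes.

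At least 4-fold above the highest of the other 12 libraries were Afp, Alb, Ttr and Apob, 4 of the 10, where 4.82% of all genes were. At least 4-fold above the TTF library were 7 of the 10 (those 4 with Apoa1, Apoc2 and Hnf4a), where 15.3% of all genes were. The genes were chosen for this pattern, so nothing is read from these shares. With 1 MEF and 1 TTF library, which also differ in strain, age and tissue, the differences have no replicate check.

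Per kilobase of exon, the order in the MEF was Afp (69.95 CPM per kb), Apoe (67.2), Alb (13.5), Ttr (9.43), Apoa2 (2.24), Apoc1 (2.03), Apoc2 (1.43), Apoa1 (1.22), Apob (0.806) and Hnf4a (0.502). A single library gives no spread by which to part neighbours in this order. In each of the 3 ntESC groups Apoe led and Apoc1 came next, at means of 140 and 17.9 CPM per kb in CASP, 534 and 67.8 in CAST, and 316 and 37.5 in B6D2F1. In B6D2F1 Apoc2 came next at 14.5 CPM per kb, ahead of Apoa2 at 8.71, whereas in CASP and CAST Apoa2 followed Apoc1.

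Many, but not all, other genes that hepatocytes secrete were also higher in the MEF. Of 24 such genes listed, 23 were in the table. Of these, 13 stood at least 4-fold above every other library, where 4.82% of all genes did. The median log2 ratio of the 23 was 2.51, against -1.19 over all genes. Trf, the iron carrier transferrin, stood at 109 CPM in the MEF and at most 19.1 CPM elsewhere. Ambp, a precursor of the plasma protease inhibitor bikunin, stood at 11.8 and at most 0.385 CPM. C3, a complement factor below the 4-fold mark, stood at 22.3 and at most 8.28 CPM. Fgb, a chain of fibrinogen, had a count of 481 in the MEF and 0 in the other 12 libraries, at least 99.1-fold higher. Of the 13, 5 are Serpina1 genes, near-identical copies of alpha-1-antitrypsin between which reads can be split. Fetub, a fetuin gene named after its values were seen, was at 0 in the MEF and reached 12.8 CPM in B6D2F1 #F2. Itih2, F2, Fgg, Kng1 and Serpinc1 were likewise higher in another library than in the MEF.

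Of 17 genes of hepatocyte metabolism listed, 4 were in the table, and the other 13 were not analysed here. Dlk1, a marker of hepatoblasts that mesenchyme also makes, stood at 313 CPM in the MEF and at most 26.5 CPM elsewhere. Ass1 and Cps1, enzymes of the urea cycle, stood at 14.6 and 0.477 CPM in the MEF and reached 541 and 1.34 CPM in the CASP lines, and Arg1, another, at 0.897 CPM in the MEF and up to 0.852 CPM. Among 15 of 17 liver transcription factors in the table, 1 (Prox1, needed for hepatoblasts to spread) was 4-fold above all others, at 21.6 CPM in the MEF and at most 1.86 CPM elsewhere. Tbx3 stood at 53.9 CPM in the MEF and up to 345 CPM in CASP #M5. The endoderm and heart factors Gata6 and Gata4 stood at 22.2 and 9.47 CPM in the MEF and at most 5.56 and 5.16 CPM elsewhere.

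Markers of other sources of these plasma proteins, and of other tissues of an embryo, were read in the same library. Of 14 visceral endoderm genes 0 were 4-fold above all others in the MEF. Dab2 and Lrp2, endocytic genes, stood at 107 and 21.5 CPM there, Amn at 0.134 CPM (a count of 7) and Cer1 at 0. The list shares genes such as Foxa2, Gata4, Gata6 and Hhex with the liver factors, and its summed level was 170 CPM in the MEF, 297 CPM in the TTF library and 107 to 581 CPM over the ntESC lines, with 121 CPM for the ESC line. Of 6 gut epithelium genes present 0 were 4-fold higher, with Cdx1 and Cdx2 at 0 in the MEF and Vil1, Cdh17, Lgals4 and Muc2 at 0.382 to 1.43 CPM. Their sum was 3.49 CPM in the MEF and up to 28.0 CPM in the lines.

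Of 11 erythroid genes 6 were at least 4-fold above every other library in the MEF, where 4.82% of all genes were. Among them was the embryonic globin Hbb-y, at 42.0 CPM and at most 0.107 CPM elsewhere. Hba-a1, Hba-a2 and Hbb-bs stood at 24.2, 16.0 and 9.09 CPM in the MEF, and the globins are close copies that can share reads. The erythroid sum was 109 CPM in the MEF, 1.97 CPM in the TTF library and 2.34 to 11.1 CPM in the ntESC lines. Of 8 neural progenitor genes 5 were 4-fold higher, among them Nes, Dcx and Map2 at 786, 196 and 180 CPM. Tubb3, at 268 CPM, was 3.23-fold above the next library. The neural list had a sum of 1533 CPM in the MEF and 50.97 CPM in the TTF library. Of 8 endothelial genes 3 were 4-fold higher (Flt1, at 94.5 CPM, Cdh5 and Emcn), whereas Kdr, Tek and Tie1, at 12.98, 3.26 and 3.23 CPM, were not. Of 6 stellate and mesothelial genes 3 were (Des, Reln and Wt1 at 193, 48.5 and 15.8 CPM). Upk3b, Msln and Lrat, at 3.11, 0.821 and 0.172 CPM, were not. Msln and Lrat were higher in another library, at 8.60 CPM in CAST #M8 and 0.608 CPM in CASP #M3.

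Of 12 macrophage genes 0 were 4-fold higher, with Lyz2, Csf1r, Cd68 and C1qb at 25.1, 12.4, 7.98 and 7.79 CPM, and the sum was 77.9 CPM in the MEF and 430 CPM in the TTF library. The 12 fibroblast genes summed to 5469 CPM in the MEF and 10196 CPM in the TTF library, and 0 were 4-fold above all others. Besides the 10 genes, the largest ratios among genes of at least 50 CPM in the MEF belonged to the muscle genes Actc1, Myod1 and Myog, at 529-, 468- and 262-fold the next library. The neuronal genes Dcx and Dcc followed at 253- and 214-fold. The transcripts of liver type in the MEF thus stood beside those of muscle, nerve and blood. What part each cell type had in the culture was not tested.

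**Figure D2:**
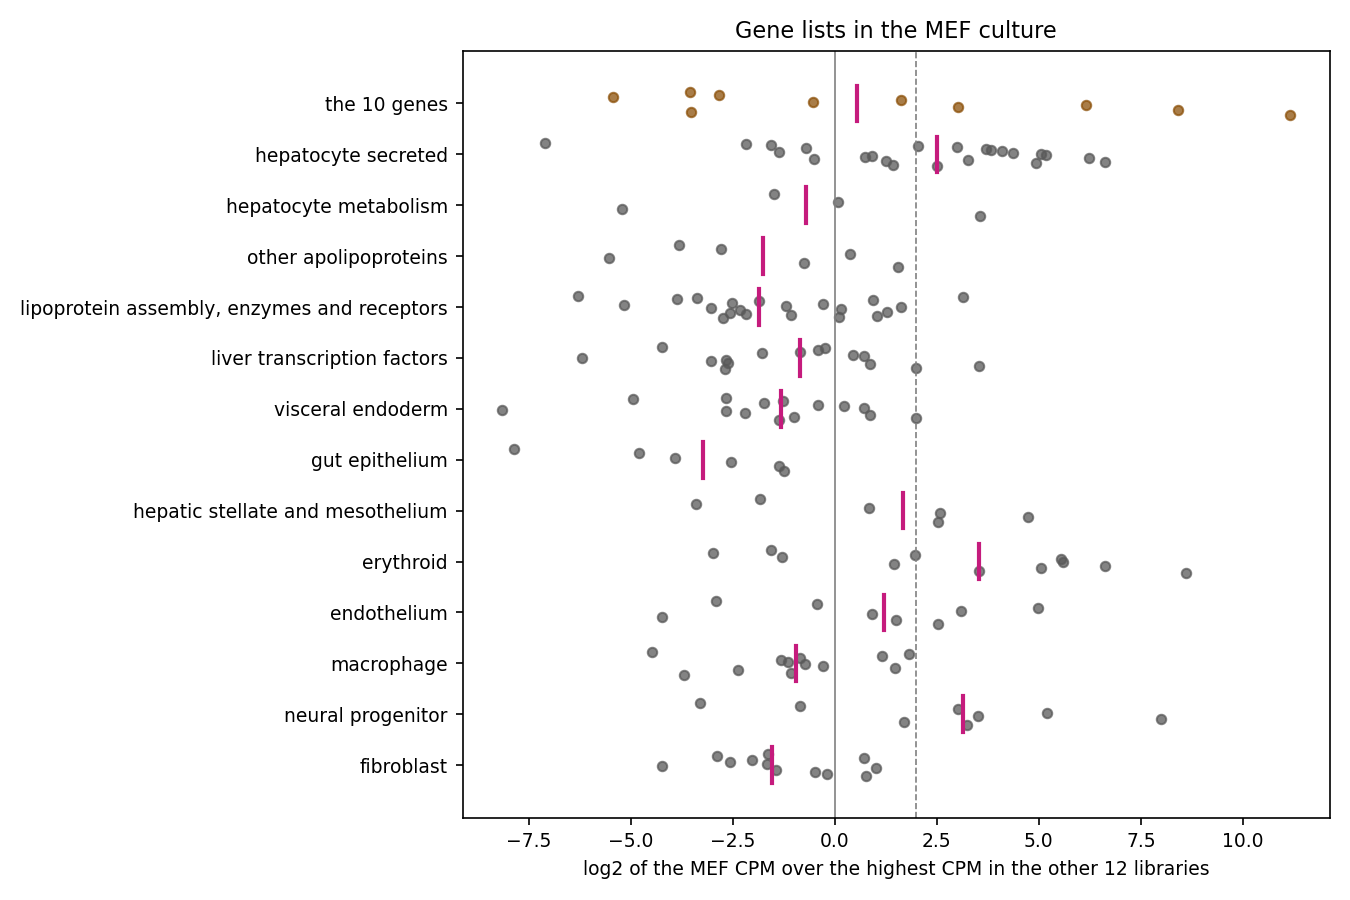
Each point is 1 gene of a list, placed by the log2 ratio of its MEF level to its highest level in the other 12 libraries (levels under 3 counts set to that floor). Pink bars are list medians and the dashed line is a 4-fold excess in the MEF. Genes secreted by hepatocytes, erythroid genes and neural progenitor genes lie mostly to the right of 0. Among the medians below 0 are those of hepatocyte metabolism (-0.71), liver transcription factors (-0.85), visceral endoderm (-1.32) and gut genes (-3.22). The median of all genes also lies below 0, at -1.19.

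Since the ntESC lines had grown on MEF feeders, the Col1a1 share above gives the size of a fibroblast signal in each line. Scaled by that share, the MEF level of Afp equals a count of 84.9 to 708 in the 10 ntESC lines. The measured counts were 4 in CAST #M2 and 0 in the other 9. The feeders were C57BL/6NCrSlc MEF, which were not sequenced, and Col1a1 was not shown to come from them. Whether feeder RNA was present was therefore not tested, and nothing on its source is read from these values. For Apob the same reckoning gives 0.116 to 0.723 CPM, against 0.381 to 1.39 CPM measured. In CAST #F2 the reckoned 0.723 CPM was above the 0.557 CPM measured. For Hnf4a it gives at most 0.156 CPM, against 0.201 to 2.57 CPM.

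Apoc2 encodes the cofactor that lipoprotein lipase needs to break down triglyceride. Its count was 0 in all 4 CASP lines. In CAST the count was 0 in #M2, 23 in #M8, 2 in #F1 and 0 in #F2. In B6D2F1 it was 502 in #M3 and 378 in #F2, and 494 in the ESC library. All 8 castaneus lines, at 0 to 23 counts, were thus below both B6D2F1 lines, with no overlap. The CAST TTF library also had a count of 0, and the B6D2F1 MEF 61.

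In CPM, Apoc2 averaged 0 in CASP (n = 4), 0.132 ± 0.232 in CAST (n = 4) and 11.8 ± 2.63 in B6D2F1 (SD, n = 2). With 3 counts as the floor per library, CASP was at least 127-fold lower than B6D2F1. CAST was 89.1-fold lower, and at least 153-fold lower without CAST #M8, which held 23 of the 25 counts. Apoc2 was chosen for this difference, so no test is given. It is 1 of a large number of strain differences: 35.5% of the genes tested were called in CASP against B6D2F1, 32.7% in CAST against B6D2F1 and 31.6% in CASP against CAST.

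A second annotated gene bears on this reading. Gm44805, annotated as protein coding, starts 3.48 kb upstream of Apoc2 at the start of Apoc4, runs on the same strand and ends in the exons of Apoc2. Apoc2 lies on chromosome 7 of GRCm38 at chr7:19671579-19677941 on the minus strand, and Gm44805 at chr7:19671584-19681423. Of the 714 windows of 100 bases, the read length, in Apoc2 transcripts, 76.8% also occur in Gm44805, and the coding sequence is the same in all 5 transcripts compared, 3 of Apoc2 and 2 of Gm44805. Reads of the shared exons can therefore be credited to either gene. The coding sequence is shown because the annotated transcripts of both genes share it. That of Apoc1, the neighbour counted in all 13 libraries, is set beside it. Both are C57BL/6J reference letters of GENCODE M21 transcripts on GRCm38, the genome to which reads were aligned. They are written 5′ to 3′, with start and stop codons in capitals.
Apoc2: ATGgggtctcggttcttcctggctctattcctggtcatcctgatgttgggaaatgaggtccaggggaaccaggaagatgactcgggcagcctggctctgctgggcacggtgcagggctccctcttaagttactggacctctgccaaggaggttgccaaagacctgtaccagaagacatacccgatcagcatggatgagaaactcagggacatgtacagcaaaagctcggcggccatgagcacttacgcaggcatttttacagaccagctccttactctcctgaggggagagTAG
Apoc1: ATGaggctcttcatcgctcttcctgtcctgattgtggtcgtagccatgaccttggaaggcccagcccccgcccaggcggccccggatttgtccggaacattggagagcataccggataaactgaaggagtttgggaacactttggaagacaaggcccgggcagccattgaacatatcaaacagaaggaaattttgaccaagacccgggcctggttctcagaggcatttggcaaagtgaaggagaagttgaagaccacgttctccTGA
They run to 294 bases (97 residues) and 267 bases (88 residues).

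Gm44805 had a count of 6 in CASP #F4 and 0 in the other 3 CASP lines. Its count was 31 in CAST #M2, 6 in #M8, 43 in #F1 and 29 in #F2, against 0 in B6D2F1 #M3 and 3 in #F2. It had 8 in the ESC library, 5 in the MEF and 0 in the TTF. In CAST, #M8, the line with 23 counts of Apoc2, had the fewest of Gm44805. Over the 4 CAST lines, 81.3% of the counts of both genes together went to Gm44805. In B6D2F1 the share was 0% in #M3 and 0.787% in #F2. Gm44805 passed the filter on low counts only through CAST, and no test is given for it.

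Summed over both genes, the level was 0.155 CPM in CASP #F4 and 0 in the other 3 CASP lines. It was 0.797 CPM in CAST #M2, 0.604 in #M8, 1.13 in #F1 and 0.622 in #F2, against 13.6 CPM in B6D2F1 #M3 and 10.01 in #F2. The groups still did not overlap. By the sum, CAST was 15.01-fold lower than B6D2F1 rather than 89.1-fold, and CASP at least 109-fold lower, with the 3 CASP lines at 0 set to 3 counts. The sum was formed after the data had been seen. The reads were aligned to a laboratory strain genome, and the part of castaneus sequence differences in these counts was not tested.

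**Figure D3:**
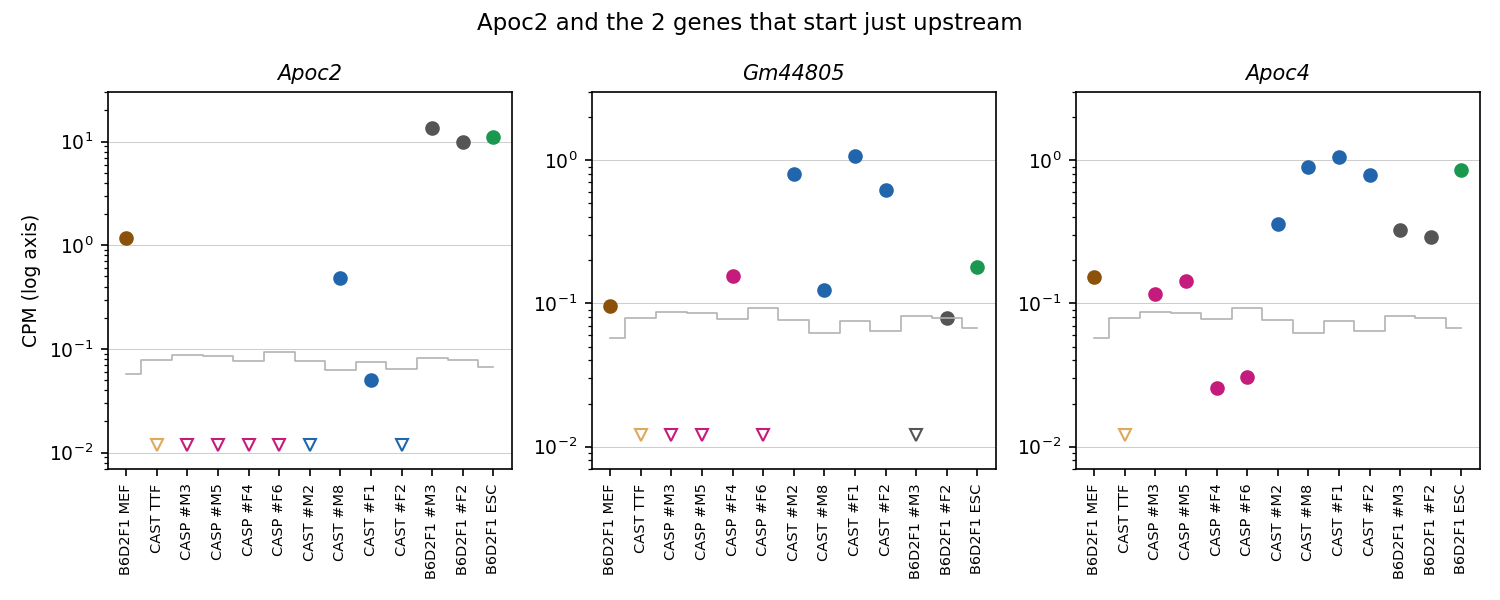
Level in CPM (log axis) of Apoc2, the overlapping gene Gm44805 and Apoc4 in 13 libraries, 1 point per library, with open triangles for a count of 0 and a grey step line for 3 counts. The B6D2F1 lines are high for Apoc2 and at or below 0.0788 CPM for Gm44805. In 3 of 4 CAST lines Gm44805 is above Apoc2, but only at 0.622 to 1.08 CPM. The CASP lines are low for all 3 genes.

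Apoe and Apoc1, which lie upstream of Apoc2 beyond Apoc4, were counted in every library. With lines in the order CASP #M3, #M5, #F4, #F6, Apoe stood at 351, 254, 285 and 309 CPM. In the order CAST #M2, #M8, #F1, #F2 it stood at 828, 1042, 1650 and 1050 CPM, and it stood at 655 and 696 CPM in B6D2F1 #M3 and #F2. Apoc1, a small apolipoprotein that inhibits lipoprotein lipase, stood at 17.6, 12.9, 11.8 and 11.2 CPM in the CASP lines, at 42.7, 50.6, 65.3 and 43.3 CPM in the CAST lines, and at 25.4 and 30.3 CPM in the B6D2F1 lines. For both genes all CASP lines were below both B6D2F1 lines and all CAST lines were above them. The share of all genes whose lines part without overlap was not counted, here or for the other genes. Nothing particular to these genes is therefore read from it.

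Apoe averaged 300 ± 41.2 CPM in CASP, 1142 ± 354 CPM in CAST and 676 ± 28.8 CPM in B6D2F1 (SD, n = 4, 4 and 2). Its log2 fold change was -1.19 in CASP against B6D2F1 (SE 0.20, edgeR adjusted p = 0.00133) and -1.91 in CASP against CAST (SE 0.18, edgeR adjusted p = 3.16e-05). In CAST against B6D2F1 it was 0.73 (SE 0.22, edgeR adjusted p = 0.0257). For Apoc1, averaging 13.3 ± 2.90, 50.5 ± 10.5 and 27.9 ± 3.50 CPM, these changes were -1.08 (SE 0.22, edgeR adjusted p = 0.00350), -1.92 (SE 0.19, edgeR adjusted p = 4.69e-05) and 0.84 (SE 0.23, edgeR adjusted p = 0.0176).

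The changes between CASP and CAST held under each alternative run. Those of CAST against B6D2F1 did not: without B6D2F1 #M3 or #F2 neither gene passed (adjusted p = 0.0658 to 0.189), nor did Apoe without CAST #M8 (0.0538). Of 12 fibroblast genes, 1 was higher in CASP than in B6D2F1 and 4 were higher in CAST, with median log2 fold changes of 1.19 and 1.26 beside 0.02 and 0.03 over all genes, of which 3625 and 3516 of 20226 were higher. Their part in these results was not tested. The ESC library, at 1026 CPM of Apoe and 53.6 CPM of Apoc1, lay within the CAST range, and with it added to B6D2F1 the changes were 0.51 and 0.45 (adjusted p = 0.108 and 0.212). Apoc1 in CASP against B6D2F1 was lost without B6D2F1 #F2 (-0.89, adjusted p = 0.0672).

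The ratio of both genes varied little among pluripotent cells. Apoc1 stood at 3.62% to 5.07% of the Apoe CPM in CASP, 3.96% to 5.16% in CAST, 3.87% and 4.36% in B6D2F1 and 5.22% in the ESC library. It stood at 1.05% in the MEF and 0.195% in the TTF library. Apoc2 stood at 2.08% and 1.43% of the Apoe CPM in B6D2F1 and 1.08% in the ESC library, and at most 0.0460% in any castaneus line. Apoc1 thus followed Apoe across the strains and Apoc2 did not.

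**Figure D4:**
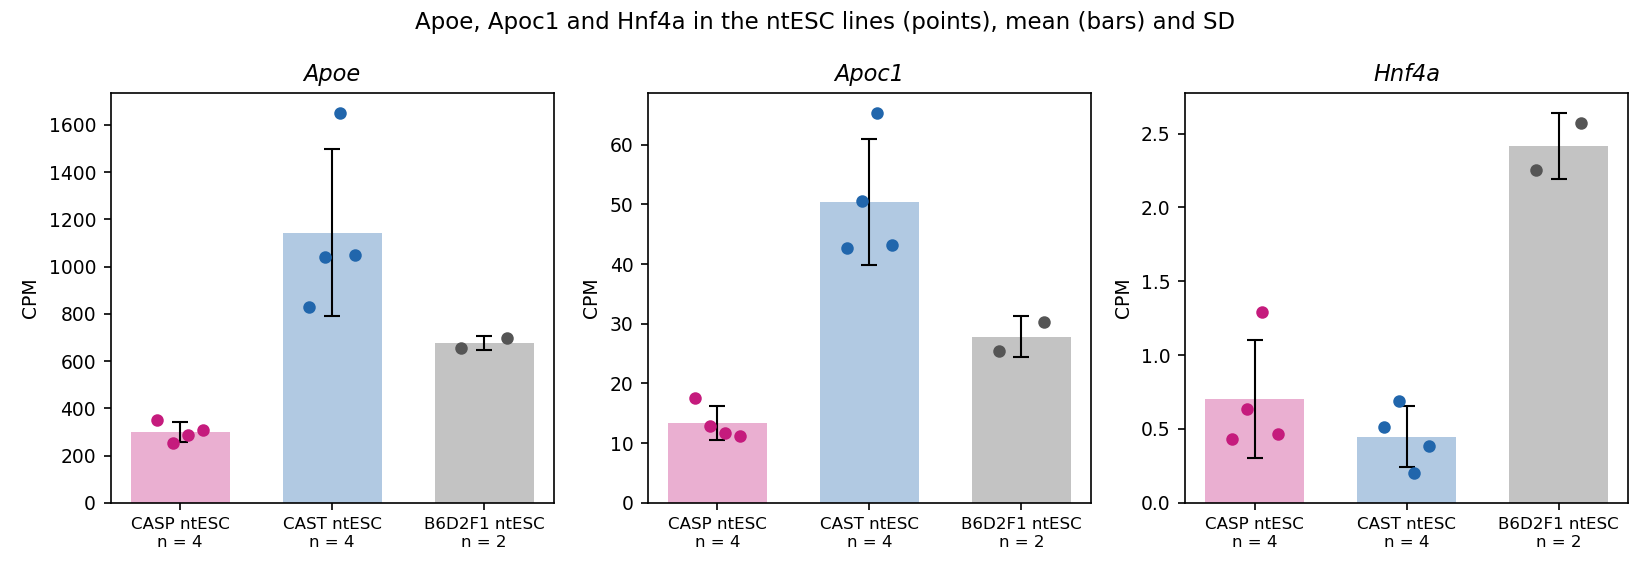
Level in CPM of Apoe, Apoc1 and Hnf4a in the ntESC lines, with 1 point per line, bars for the strain mean and error bars of 1 SD (n = 4, 4 and 2). Apoe and Apoc1 are lowest in CASP and highest in CAST, while Hnf4a is low in both castaneus strains.

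Within 100 kb of Apoc2, 15 other genes are annotated, 12 were in the table and 11 passed the filter. Apoc4, a minor apolipoprotein of very low density lipoprotein, lies between Apoc2 and Apoc1 and had counts of 1 to 5 in the CASP lines, 14 to 43 in the CAST lines and 12 and 11 in B6D2F1 #M3 and #F2. It was lower in CASP than in CAST, by edgeR with a log2 fold change of -3.29 (SE 0.60, adjusted p = 0.00221). Against B6D2F1 it had -1.96 in CASP (edgeR adjusted p = 0.0530) and 1.33 in CAST (0.139). The change in CASP passed under 4 of 19 alternatives (edgeR adjusted p = 0.00856 to 0.0464). These were no sex covariate, leaving out CASP #M5 or CAST #M2, and adding the ESC library to B6D2F1. Apoc4 overlaps Gm44805 on the same strand, which leaves its counts in some doubt. How much sequence these 2 genes share was not measured.

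The farther neighbours moved in no single direction. The zinc-finger gene Zfp296 rose by 1.39 on the log2 scale in CASP (SE 0.16, edgeR adjusted p = 9.3e-05) and fell by 1.16 in CAST (SE 0.14, adjusted p = 2.2e-04), both against B6D2F1. Clasrp, a splicing factor gene, fell by 0.79 in CASP (adjusted p = 0.00215) and had -0.11 in CAST (adjusted p = 0.606). Tomm40, a pore of the mitochondrial outer membrane, fell by 0.75 in CASP and by 0.41 in CAST (adjusted p = 0.00116 and 0.0292). Relb, an NF-kappaB subunit, fell by 0.89 and 0.69 (0.0131 and 0.0424), and Bcam, a laminin receptor, fell by 1.16 in CASP (0.0133) and had -0.58 in CAST (0.167).

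Clptm1 and Nectin2 did not pass in CASP or in CAST against B6D2F1 (edgeR adjusted p = 0.890 and 0.268 in CASP, 0.0514 and 0.0559 in CAST), though Nectin2 passed in CAST under 9 of 20 alternatives and Clptm1 under 4. Leaving out either B6D2F1 line ended the calls of Relb and Bcam in CASP (adjusted p = 0.0578 to 0.143). In CAST, Relb was lost in 8 of 10 fits without 1 line (each CAST line, CASP #M3 or #M5 and either B6D2F1 line, adjusted p = 0.0512 to 0.258), and Tomm40 without CAST #M8 or #F1 or either B6D2F1 line (0.0551 to 0.224). With the ESC library added to B6D2F1, Relb had -0.62 in CASP and -0.42 in CAST (0.0940 and 0.273), and Tomm40 -0.48 and -0.14 (0.0942 and 0.648). Gm26600 was in the table but below the filter.

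**Figure D5:**
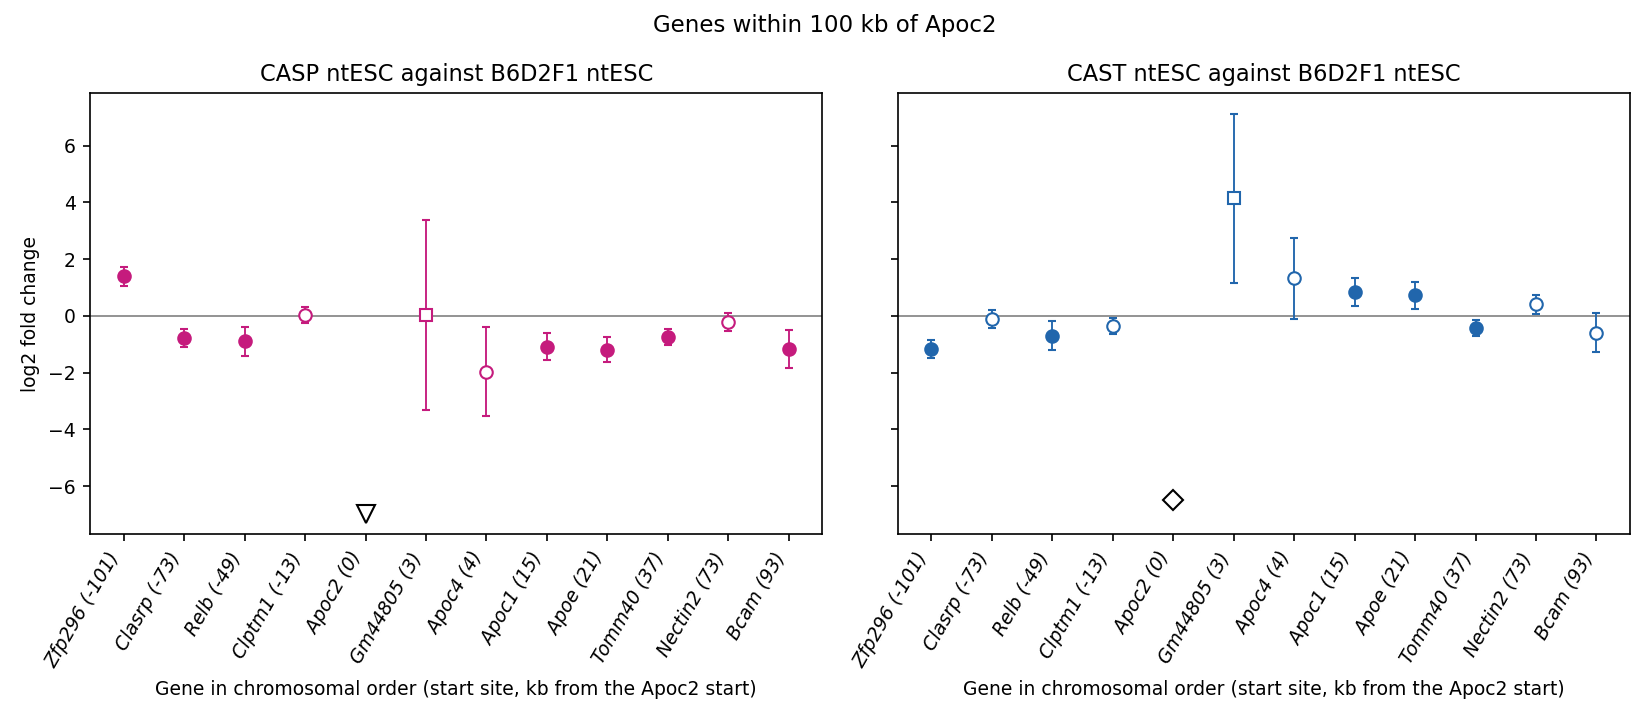
log2 fold change with 95% interval of the genes within 100 kb of Apoc2, in chromosomal order with the distance of each start site in kb, in CASP and in CAST against B6D2F1 ntESC lines. Filled points passed the edgeR test and open circles did not. The square is Gm44805, which passed the filter only through CAST, so its interval is not to be read as a test. The triangle is the bound for Apoc2 with CASP at 3 counts (at least 127-fold lower). The diamond is the ratio of Apoc2 means in CAST (89.1-fold lower). Apoc1 and Apoe are lower in CASP and higher in CAST.

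The 5 genes whose log2(CPM + 1) was most like that of Apoc2 over the 11 pluripotent libraries were Rps2, Olig1, Rpl35a, Rpl7a and Brox, with Pearson's r of 0.998, 0.996, 0.991, 0.989 and 0.987 among 12891 genes ranked. The r is a description over libraries that fall into strains. Olig1, a neural transcription factor gene, stood at 0 to 0.181 CPM in CASP, 0.107 to 0.312 CPM in CAST, and 6.75 and 9.68 CPM in B6D2F1. Brox, an endosomal protein gene, stood at 28.4 to 30.2, 28.5 to 31.7, and 52.9 to 57.6 CPM. Rps2, Rpl35a and Rpl7a encode ribosomal proteins and have near-identical copies in the genome, so their levels are uncertain.

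Hnf4a was low in both castaneus strains. In the line order used for Apoe, its counts were 15, 22, 50 and 15 in CASP and 20, 33, 8 and 18 in CAST, against 83 and 98 in B6D2F1 #M3 and #F2, with 155 in the ESC library. The castaneus lines were all below the B6D2F1 lines and overlapped each other. It averaged 0.705 ± 0.400 CPM in CASP, 0.447 ± 0.205 CPM in CAST and 2.42 ± 0.225 CPM in B6D2F1 (SD, n = 4, 4 and 2).

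The log2 fold change of Hnf4a was -1.78 in CASP (SE 0.51, edgeR adjusted p = 0.0206) and -2.44 in CAST (SE 0.52, edgeR adjusted p = 0.00516) against B6D2F1, and 0.66 in CASP against CAST (SE 0.47, 95% interval -0.38 to 1.70, edgeR adjusted p = 0.316). In CASP it no longer passed without CASP #M3 or #M5 or either B6D2F1 line (adjusted p = 0.0502 to 0.176), nor in CAST without B6D2F1 #F2 (0.0535). Hnf4a lies on chromosome 2, whose genes stood higher by a median of 0.47 on the log2 scale in CASP #F6 than in the other CASP lines, against -0.02 for other chromosomes. Hnf4a itself stood at 0.463 CPM in that line, within the range of the others.

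In the same order, Apoa2 stood at 5.39, 3.31, 3.23 and 4.97 CPM in CASP, at 8.53, 6.62, 6.95 and 5.70 CPM in CAST, and at 4.89 and 4.47 CPM in B6D2F1 #M3 and #F2. All CASP lines were below all CAST lines, and the B6D2F1 lines fell in the CASP range. It was lower in CASP than in CAST by edgeR, with a log2 fold change of -0.72 (SE 0.22, adjusted p = 0.0281), a call lost in 5 of 10 fits without 1 line (CASP #M5 or #F4, CAST #M2, #M8 or #F1). Against B6D2F1 it had -0.16 in CASP (95% interval -0.75 to 0.42, edgeR adjusted p = 0.663) and 0.55 in CAST (-0.04 to 1.15, adjusted p = 0.139).

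Apob passed in no strain comparison, with 0.58 in CASP and 0.41 in CAST against B6D2F1 and 0.18 in CASP against CAST (edgeR adjusted p = 0.410, 0.581 and 0.785). The 95% interval reached from -0.56 to 1.73 in CASP against B6D2F1, at 14 to 45 counts per line, so a change within these bounds is not excluded. These comparisons share lines. Of the 5 genes given a test, 3 were called in CASP (3 lower) and 3 in CAST (2 higher, 1 lower) against B6D2F1, and 3 in CASP against CAST (3 lower). Over all genes 35.5%, 32.7% and 31.6% were called, and with 5 genes nothing is read from the difference.

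Between the 5 female and the 5 male ntESC lines, 0 of 5 genes (without Apoc2) were called by edgeR, where 0.0494% of all genes were, and 0 had an unadjusted p under 0.05. DESeq2 and limma-trend also called 0. Apoe had 0.21 (95% interval -0.13 to 0.55). The sex difference in CASP was not shown to differ from that in CAST for any of them (edgeR adjusted p of 0.957 or more).

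Of 24 genes of lipoprotein assembly, enzymes and receptors, 21 were in the table and 20 were tested. In CASP against B6D2F1, 2 rose and 5 fell, with a median log2 fold change of -0.02 beside 0.02 over all genes. In CAST against B6D2F1, 4 rose and 3 fell (0.16 beside 0.03), and in CASP against CAST 2 rose and 9 fell (-0.19 beside -0.02). The comparisons share lines, and nothing particular to the list is read from these counts. Of 14 liver transcription factors tested 2 were lower in CASP and 3 in CAST than in B6D2F1, with 0 higher. Of 12 hepatocyte secreted genes 1 was higher and 3 lower in CASP and 1 higher and 4 lower in CAST. Over all 20226 genes, 3625 were higher and 3547 lower in CASP, and 3516 higher and 3093 lower in CAST. Nothing particular to either list is read from these counts.

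Lipc and Lipg, the hepatic and the endothelial lipase, averaged 0.690 ± 0.627 and 2.23 ± 1.29 CPM in CASP, 6.13 ± 1.28 and 4.74 ± 0.867 CPM in CAST, and 0.643 ± 0.129 and 0.936 ± 0.0984 CPM in B6D2F1. In CAST against B6D2F1 they rose by 3.23 and 2.33 (edgeR adjusted p = 0.0236 and 0.00677), and Lipc in CASP against CAST fell by 3.16 (adjusted p = 0.00675). The calls of CAST against B6D2F1 were lost without B6D2F1 #M3 for both genes (adjusted p = 0.163 and 0.0692) and without #F2 (0.146 and 0.0726), and that of Lipc also without CAST #M8 (0.0511). With the ESC library added to B6D2F1, Lipg had 0.69 (adjusted p = 0.470).

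Abca1, which loads cholesterol onto Apoa1, averaged 6.05 ± 1.64 CPM in CASP, 4.31 ± 1.63 CPM in CAST and 16.0 ± 2.22 CPM in B6D2F1. It fell by 1.44 in CASP and by 1.94 in CAST against B6D2F1 (edgeR adjusted p = 0.00228 and 4.24e-04), the first call being lost without B6D2F1 #M3 (0.0505). Abcg1, a second cholesterol exporter, averaged 1.73 ± 0.914 CPM in CASP and 6.36 ± 1.78 CPM in CAST and fell by 1.96 in CASP against CAST (adjusted p = 0.00240). Pltp, which moves phospholipid between particles, fell by 1.25 in CASP against B6D2F1 (adjusted p = 0.00254), and Lcat, which esterifies cholesterol, rose by 1.33 there (adjusted p = 0.0429), a call lost in 7 of 10 fits without 1 line (CASP #M3, #M5 or #F4, CAST #M2 or #M8, or either B6D2F1 line). The Pltp call was lost without B6D2F1 #M3 (0.0578).

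Apobec1, the enzyme that edits Apob RNA, averaged 14.8 ± 3.87 CPM in CASP, 6.28 ± 2.50 CPM in CAST and 7.08 ± 1.06 CPM in B6D2F1, and rose by 1.04 in CASP against B6D2F1 and by 1.26 against CAST (edgeR adjusted p = 0.0148 and 0.00186). The first call was lost without B6D2F1 #M3 or #F2 (0.0765 and 0.131), and with the ESC library added to B6D2F1 the change was 0.24 (0.686). Among other apolipoproteins, Clu, a secreted chaperone, rose by 1.83 in CASP and by 1.02 in CAST against B6D2F1 (edgeR adjusted p = 8.01e-04 and 0.0177). Apod, a carrier of small lipids, fell by 2.21 in CASP against B6D2F1 and by 2.62 against CAST (adjusted p = 0.00191 and 3.79e-04). Apof, at 1.61 CPM or less in every library, rose by 2.30 in CASP and by 3.34 in CAST against B6D2F1 (edgeR adjusted p = 0.0402 and 0.00823). Alternative runs are not given for Clu, Apod or Apof.

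In the MEF, Lrp1, Lrp8 and Nr1h2, a pair of lipoprotein receptors and a sterol sensor, stood at 752, 83.8 and 39.4 CPM, against 5050, 40.7 and 82.1 CPM in the TTF library. Of the 6 other apolipoprotein genes in the table (10 listed), 0 were 4-fold higher in the MEF than in all others. There Clu, Apom, Apod and Apon stood at 56.4, 1.57, 0.706 and 0.668 CPM, while the other 4 were not analysed here.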

How the data were processed

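Stranded poly(A) RNA-seq libraries of 13 cultures were read in pairs of 100 bases. The submitters' notes name fastp 0.22.0 for read filtering, HISAT2 2.2.1 with GRCm38 for alignment, StringTie 2.1.7 for quantification, and edgeR. Whether counting used strand, and how reads shared by overlapping genes were divided, is not given in the sources used here. The deposited counts are whole numbers per gene, not normalized. The deposited log2 values were made by the authors from counts divided by size factors, with 4 added, and served only for the limma alternative. The reads came from castaneus strains too, and reads that differ from the reference may align less well.

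The 10 genes, the gene lists and the tests were chosen with earlier results of these data known. CPM used TMM factors of all 13 libraries (edgeR 4.0.16, R 4.3.3). The 10 ntESC lines were fitted together with strain and sex (filterByExpr, quasi-likelihood test, Benjamini-Hochberg adjustment over all genes tested, threshold 0.05), without the ESC library, and checked on simulated data. No p is given for Apoc2 or for Gm44805, which passed the filter through 1 strain each. MEF ratios set levels under 3 counts to that floor. Of each list, up to 4 genes with the highest CPM in the MEF were named and, of the lipoprotein list, up to 4 called genes of largest change per strain comparison. All genes within 100 kb of Apoc2, the 5 most like it among genes of at least 5 CPM, and the 5 of largest MEF ratio were also named. Some further genes were chosen after their values were seen (Fetub, Itih2, F2, Fgg, Kng1, Serpinc1, Cer1, Cdx1, Cdx2, Amn, Cdh5, Emcn, Msln, Lrat, and Apod and Apof as strain differences). Alternatives were DESeq2 1.42.0, limma 3.58.1, other scalings, filters and floors, and leaving out each line. Genes of GENCODE M21 matched 21664 rows. Some genes that the naming rule would take are not reported here.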

Additional observations from a re-analysis of the deposited data

Results flagged for a closer look

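Among 13 groups of 4 lines tested for a line far from the other 3, 2 were past Dixon's critical value. Chance alone gives about 1 in 20 groups of continuous values. That rate does not hold where most lines are at or near 0, as in both of these, so nothing is read from them. With 3 lines at 0, any count in the other line would have passed for Afp. Afp stood at 0.103 CPM in CAST #M2, a count of 4, with 0 in the other 3 CAST lines. Apoc2 stood at 0.479 CPM in CAST #M8, a count of 23, with 0 to 0.0502 CPM in the other 3.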

How the results depend on the processing

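No paired analysis was possible because any pair of strains shares at most 1 line number, and the numbers name separate lines. No result changed direction past its threshold. Of the 5 genes tested, the number called was 3 in each strain comparison. Leaving out 1 line gave 1 to 3 in CASP against B6D2F1 (1 without B6D2F1 #F2), 0 to 3 in CAST against B6D2F1 (0 without B6D2F1 #F2, 1 without #M3, where calls over all genes fell to 3269 and 2924, against 6609) and 2 to 3 in CASP against CAST. Adding the ESC library to B6D2F1 left 1 called in CAST against B6D2F1. The causes were not tested. Between the sexes it stayed 0. Summed with Gm44805, an alternative chosen after seeing the data, the Apoc2 level was 0.0387 CPM in CASP and 0.788 CPM in CAST, against 0 and 0.132 CPM alone. With only 2 B6D2F1 lines, the strain calls against B6D2F1 rest on a small spread, and counts under about 3 in a library say nothing on levels below that floor.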
